A study of Mus musculus with 6 samples.

Results

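Cytosolic ribosomal protein genes were examined in single-cell RNA sequencing of mouse lung. A gene was a member if its symbol was Rpl or Rps followed by a digit, or was Rpsa, Rplp0, Rplp1 or Rplp2, leaving out the symbols ending in -ps with or without a number and the Rps6k kinases. This gave 86 of the 32285 genes, of which 33 encode small-subunit (40S) proteins, 52 encode large-subunit (60S) proteins and 1, Rps19bp1, encodes a protein that binds Rps19. All 86 members were annotated as protein-coding genes, on 19 chromosomes, in GENCODE vM21.

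The ribosome is assembled in the nucleolus from ribosomal RNA and one copy each of most of these proteins, with the acidic stalk proteins as the known exception. Many of their mRNAs start with a C followed by a run of pyrimidines, the 5′ terminal oligopyrimidine (TOP) tract, through which mTOR signalling and Larp1 control their translation. Their mRNAs are short, stable and abundant, so in droplet data they take a share of the reads that is commonly high in lymphocytes and low in neutrophils.

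All 6 mice were male, 12 weeks old and carried human CTLA4 exons in place of the mouse ones (hCTLA4, on a C57BL/6 background), and all had received 2 oropharyngeal doses of bleomycin (1.25 U/kg, 2 weeks apart). From day 21 after the second dose they were given IgG1 isotype control (3 mice) or ipilimumab (3 mice), at 5 mg/kg for 4.5 weeks. Ipilimumab is a CTLA4-blocking antibody that the labels spell anti-CLTA4 mAb. The right lung was digested with collagenase and the cell suspension entered a 10x 3′ library, with no sorting step described. No mouse without bleomycin was analysed here, so values describe treated, injured lungs only.

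The 6 libraries held 37666042 to 48612412 unique molecular identifiers (UMIs), and 3269 to 4348 cells per mouse passed the filters, 24251 in all. Any pair of libraries shared between 0 and 8 cell barcodes. The library of ipilimumab mouse 1 stood apart, with 22056 barcodes of at least 100 UMIs against 4834 to 6230 in the other libraries and 78.8% of its UMIs in called cells against 92.4% to 93.1%. Its 13158 barcodes of 100 to below 500 UMIs, which were not used as cells, had a ribosomal protein share of 17.5%. Without this library the mean endothelial share was 3.86%, the median log2 fold changes of members in endothelial cells and aerocytes between treatments were 0.14 and 0.68, and those of the comparisons of cell types were -1.63 (endothelial against fibroblast), -2.77 (endothelial against T), -0.94 (aerocyte against general capillary) and 0.92 (naive against effector T), beside the values on all mice given below. Members made up 32279012 of the 229944603 UMIs in cells, or 14.04%. A share is relative to the other RNA of the cell and does not give the number of molecules per cell, and levels of different members were not ranked as transcription because reads of near-identical pseudogenes are dropped to a different degree for each gene.

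The first bases of 6 members show how the TOP tract varies among them. The windows run from 10 bases before to 20 bases from a RefSeq transcript start (GRCm38.p6), with the run of C and T that begins at the start in capitals; Rps24, Rpl13, Rps27 and Rps15a are among the 8 members with most UMIs, Rps18 is described below for aerocytes, and Rpl10l had no UMI in any cell.
Rps15a, chr7:118116128-118116157, minus strand: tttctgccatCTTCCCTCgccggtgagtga
Rps18, chr17:33955646-33955675, minus strand: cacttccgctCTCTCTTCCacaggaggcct
Rps27, chr3:90213629-90213658, minus strand: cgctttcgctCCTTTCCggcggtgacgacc
Rps24, chr14:24490668-24490697, plus strand: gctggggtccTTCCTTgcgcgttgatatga
Rpl13, chr8:123102340-123102369, plus strand: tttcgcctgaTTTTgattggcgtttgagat
Rpl10l, chr12:66284382-66284411, minus strand: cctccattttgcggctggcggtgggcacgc
The runs of Rps15a, Rps18 and Rps27 begin with C at the annotated start, those of Rps24 and Rpl13 begin with T, and Rpl10l has none. Of the 66 members with a RefSeq promoter entry, 14 (21.2%) had a start with C followed by at least 4 bases of C or T, against 3.01% of the 27025 genes with an entry. The letters CCGGAAG, on either strand and anywhere from 250 bases before to 50 after the start, were found for 26 of the 66 members (39.4%) against 9.93% of genes. These are matches of letters at annotated starts, and a start annotated a few bases away hides a tract.

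Across all cells the members differed widely in count. Rps24, a small-subunit protein gene at chromosome 14, 24487125 to 24496959 on the plus strand (mm10), had the most UMIs at 977295. It was followed by Rplp1, an acidic stalk protein of the large subunit, with 821930 UMIs. Rpl13, Rpl23, Rps27, Rps15a, Rps20 and Rps16 followed with 710041 down to 598622, and together these 8 genes held 17.3% of member UMIs. At the other end, the 5 members with the fewest UMIs were Rpl7l1 (11337), Rps19bp1 (4787), Rpl3l (774), Rpl39l (244) and Rpl10l (0).

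The share of UMIs from ribosomal protein genes differed several-fold between cell types, and endothelium was among the lowest. Cells were gated to a type when at least 3 of its 10 marker genes were detected with a lead of 2 over the next type, and the type names stand for those markers. Among the 11 cell types with at least 5 cells in all 6 mice, the share was lowest in neutrophils. Their mean was 2.70% of UMIs, with a range of 2.29% to 3.43% over 6 mice. Endothelial cells came next at 3.95% ± 0.695 (SD, n = 6 mice, 1048 cells).

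Alveolar macrophages had 6.78% ± 0.320, nonclassical monocytes 9.63% ± 0.473, fibroblasts 10.3% ± 0.981, interstitial macrophages 10.6% ± 1.15 and NK cells 12.8% ± 0.631. Dendritic cells had 14.5% ± 0.680, classical monocytes 15.2% ± 0.601 and T cells 24.3% ± 1.11 (all SD, n = 6 mice), and B cells had a mean of 18.1% with a range of 16.7% to 19.4%. Of neighbours in this order, the ranges over mice did not overlap between endothelial cells and alveolar macrophages, between alveolar macrophages and nonclassical monocytes, between classical monocytes and B cells and between B and T cells. Every other pair of neighbours overlapped, including neutrophils and endothelial cells, although endothelial cells had the higher share in 6 of 6 mice. Mural cells (1.42% in 1 mouse), ciliated cells (3.48% in 5 mice), AT2 cells (8.04% in 3 mice) and plasma cells (16.7% in 4 mice) did not reach 5 cells in the other mice.

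**Figure D1:**
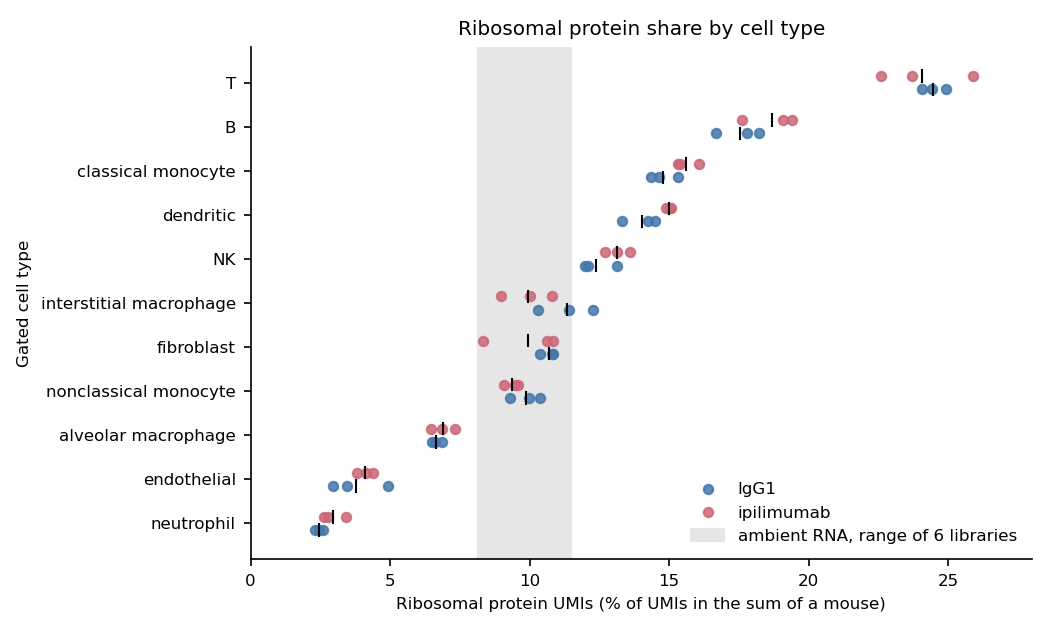
Share of UMIs from ribosomal protein genes (horizontal axis, %) in the summed cells of each mouse for 11 gated cell types; points are mice, vertical ticks group means, and the grey band the range of the share in ambient RNA over 6 libraries. Endothelial cells lie between 2.95% and 4.92%, below the band of 8.14% to 11.5%, and T cells between 22.6% and 25.9%.

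Within each mouse the share of T cells was 4.89 to 8.44 times that of endothelial cells, and the share of fibroblasts 1.90 to 3.66 times. Ambient RNA, read from barcodes far below the cell threshold, had a share of 8.14% to 11.5%, which was above the endothelial sum in 6 of 6 mice. Free RNA therefore carries more ribosomal protein message per UMI than the endothelial gate itself. Subtracting an ambient profile at 5% of UMIs lowered the endothelial mean to 3.67%.

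Each endothelial cell type sum covered a wide spread of cells. The median endothelial cell had a share of 1.86% to 3.10% depending on the mouse, while the highest cell of each mouse had 15.3% to 27.5%. The mean over mice of these medians was 2.44%, so the sums are carried by a tail of cells with high shares. Between 19.0% and 47.4% of the endothelial cells of a mouse were at 4% or more. In those cells the 10 leukocyte genes made up 4.59 per 10000 UMIs over all mice against 0.71 in the rest, and Cd74, H2-Aa and H2-Ab1, genes of MHC class II presentation, 21.2 against 4.33, both higher in 6 of 6 mice. The part of leukocyte RNA in the tail was not tested here.

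The balance of the 2 subunits moved with the cell type as well. Large-subunit genes had 1.25 to 1.33 times the UMIs of small-subunit genes in endothelial cells, against 1.12 to 1.14 in T cells, 1.11 to 1.13 in B cells and 1.06 to 1.15 in neutrophils. The endothelial range did not overlap those of these 3 cell types, but it overlapped those of alveolar macrophages (1.30 to 1.32), interstitial macrophages (1.21 to 1.28) and AT2 cells (1.26 to 1.28, 3 mice). Aerocyte capillary cells, described below, had 1.34 to 1.51.

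The endothelial share depended on the UMIs of the cell in a pattern that fell and then rose. In endothelial cells of 500 to below 1000 UMIs the mean over 6 mice was 6.63%, at 1000 to below 2000 it was 3.97%, at 2000 to below 4000 it was 2.51%, at 4000 to below 8000 it was 3.60% and at 8000 or more it was 4.53%. The 2000 to below 4000 bin was the lowest in 5 of 6 mice. The exception was ipilimumab mouse 1, with 4.07% in that bin against 3.33% at 4000 to below 8000. Cells of at least 8000 UMIs were above the 2000 to below 4000 bin in 6 of 6 mice. With depth counted from UMIs outside ribosomal protein genes, the 2000 to below 4000 bin stood at 2.67%.

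Other cell types had other profiles. In T cells the mean went up from 16.2% at 1000 to below 2000 UMIs (3 mice, all ipilimumab) to 24.6% at 8000 or more (6 mice). With depth counted from UMIs outside ribosomal protein genes that rise was not kept, since T cells then had 26.0% at 4000 to below 8000 and 22.0% at 8000 or more. In fibroblasts the mean went from 15.2% (1000 to below 2000 UMIs, 1 IgG1 and 3 ipilimumab mice) to 9.79% at 8000 or more (6 mice). B cells stood at 8.96% (2 IgG1 and 1 ipilimumab mice) and 9.89% (6 mice) in the bins below 2000 UMIs. Above, they stood at 19.0%, 18.4% and 17.0% (6 mice each). Where a bin lacks mice, its mean covers other mice than the next bin. The endothelial mean was below those of T cells, B cells and fibroblasts in each bin from 2000 UMIs up. At 500 to below 1000 UMIs, where the ambient share of 8.14% to 11.5% is nearest, endothelial mice ranged widely; the part of free RNA in these values was not tested.

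**Figure D2:**
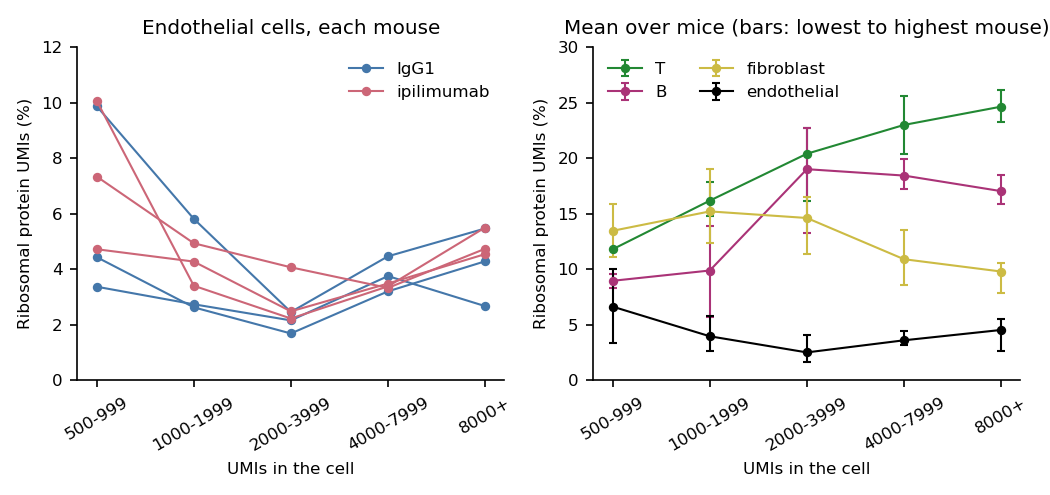
Share of ribosomal protein UMIs (vertical axis, %) by UMIs in the cell (horizontal axis, 5 bins); left, endothelial cells of each mouse; right, means over mice of 4 cell types with bars from the lowest to the highest mouse. Endothelial cells fall from 6.63% to 2.51% and rise to 4.53%, while T cells rise to 24.6%. A mouse with fewer than 5 cells in a bin is left out of that bin.

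Within a mouse, the endothelial cells with a high ribosomal protein share also had a high share of the 23 translation factor genes, which include the elongation factors and poly(A)-binding proteins. Spearman's rho across cells ran from 0.77 to 0.90 in the 6 mice (78 to 305 cells each). For 18 immediate early genes it ran from 0.12 to 0.41, for the ribosomal RNA repeat transcripts Gm42418 and AY036118 from -0.57 to -0.18, for mitochondrial genes from -0.14 to 0.22 and for the 10 leukocyte genes from -0.06 to 0.38. The UMIs of a cell outside ribosomal protein genes gave -0.27 to 0.11. The values share a denominator and a library within each mouse and are a description only.

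Between treatments, no ribosomal protein gene was called in endothelial cells as a whole. The endothelial share was 3.46%, 4.92% and 2.95% in the IgG1 mice and 4.39%, 4.14% and 3.82% in the ipilimumab mice. The groups overlapped, with all ipilimumab values inside the IgG1 range, and their means were 3.78% ± 1.02 and 4.12% ± 0.283 (SD, n = 3 each). The difference of 0.34 percentage points was 0.21 without ipilimumab mouse 1, 0.91 without IgG1 mouse 2 and -0.07 without IgG1 mouse 3, so its sign rests on 1 library.

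Gene by gene, edgeR's quasi-likelihood test on UMIs summed per mouse, with Benjamini-Hochberg adjustment over all genes and a call at an adjusted p under 0.05 with an absolute log2 fold change over 0.3, called 0 of 83 tested members in endothelial cells. It called 0% of all 8171 genes tested, with 754 genes and 0 members at an unadjusted p under 0.05, and DESeq2 called 28 genes and 0 members. The lowest adjusted p of a member was 0.547. The median log2 fold change of the members (ipilimumab over IgG1) was 0.18, beside -0.01 over all genes, and 78 of 83 were above 0 against 48.1% of all genes. Leaving out single mice moved this median from 0.03 (without IgG1 mouse 3) to 0.39 (without IgG1 mouse 2). Members are read in the same cells and move together, so the 78 are not independent.

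The most abundant members showed the same overlap between groups. Rps24 stood at 790, 1109 and 586 CPM (UMIs of the gene scaled to the library total after TMM) in IgG1 and 1077, 871 and 860 CPM in ipilimumab, a log2 fold change of 0.18 ± 0.22 (SE) with an adjusted p of 0.851. Rplp0, the scaffold of the large-subunit stalk, stood at 344, 524 and 302 CPM against 508, 504 and 470 CPM, a log2 fold change of 0.36 ± 0.20 with an adjusted p of 0.628. In both genes IgG1 mouse 2 was above every ipilimumab mouse, and IgG1 mice 1 and 3 were below every one.

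For the other stalk proteins the log2 fold change was 0.17 (Rplp1) and 0.04 (Rplp2), and for Rpsa, a small-subunit protein also known as the laminin receptor, 0.29. Among the remaining abundant members it was 0.23 for Rpl13, 0.27 for Rpl23 (adjusted p 0.762), 0.29 for Rps27, 0.35 for Rps15a, 0.10 for Rps20 and 0.18 for Rps16, with none called. The paralogs did not pass the test either, at 0.16 for Rpl22l1, 0.25 for Rpl36al, 0.19 for Rpl7l1 and -0.03 for Rps27l. Small-subunit and large-subunit members had median log2 fold changes of 0.18 and 0.17.

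Genes that work with the ribosome were not called in endothelial cells between treatments either. Of 23 translation factors, 24 tested ribosome assembly genes, 17 tested mTOR and TOP mRNA regulators and 66 tested mitochondrial ribosomal protein genes edgeR called 0, with 2, 3, 0 and 3 at an unadjusted p under 0.05. Their median log2 fold changes were 0.20, 0.22, -0.01 and -0.06.

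Endothelial cells were then split by 8 markers each into aerocyte capillary cells, which lie along the gas-exchange surface (325 cells), and general capillary cells, which are known as progenitors of capillary endothelium (633 cells). In aerocytes ribosomal protein genes were higher in ipilimumab than in IgG1 mice. The share was 1.91%, 2.08% and 2.12% in IgG1 and 3.78%, 4.05% and 2.60% in ipilimumab, without overlap. In general capillary cells it was 4.16%, 6.69% and 3.90% against 4.83%, 4.25% and 4.49%, with overlap.

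In aerocytes edgeR called 33 of 82 tested members, all higher in ipilimumab, where 1.22% of all 5584 genes tested were called higher. The median log2 fold change of the tested members was 0.79 beside -0.02 over all genes, 82 of 82 were above 0, and 76 were higher at an unadjusted p under 0.05 against 6.72% of all genes. For 67 members every ipilimumab mouse was above every IgG1 mouse, which held for 9.06% of all genes. Members are read in the same cells and move together, so these counts are not independent observations. The called members were 16 of 33 from the small and 17 of 49 from the large subunit, with log2 fold changes from 0.60 to 1.36.

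Rps28, Rps18, Rpl32 and Rps3 are described because they were among the called members with the largest changes, and were chosen after their values were seen. Rps24 stood at 260, 290 and 247 CPM in IgG1 and 863, 715 and 438 CPM in ipilimumab, a log2 fold change of 1.36 ± 0.22 (SE, adjusted p 0.00396). Rps18 stood at 193, 177 and 214 CPM against 517, 525 and 351 CPM (1.23 ± 0.20, adjusted p 0.00404). In both genes the groups lay apart and ipilimumab mouse 3 was nearest to the controls.

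Rps28 stood at 125, 134 and 155 CPM against 391, 389 and 225 CPM (log2 fold change 1.25 ± 0.23). Rpl32, of the large subunit, stood at 178, 283 and 203 CPM against 582, 612 and 327 CPM (1.23 ± 0.23). Rps3, a small-subunit protein at the mRNA entry channel, stood at 178, 212 and 196 CPM against 509, 425 and 351 CPM (1.15 ± 0.19). The groups did not overlap in any of these 3 genes.

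Rps15a was also called at 1.17, and among the other abundant members Rpl13 (0.84), Rpl23 (0.91), Rps27 (0.84), Rps16 (0.91), Rplp1 (0.87) and Rplp0 (0.90) were called. Rps20 at 0.69 (adjusted p 0.083), Rpsa at 0.88 (adjusted p 0.0593) and Rplp2 at 0.59 (adjusted p 0.165) did not pass. Of the paralogs, Rpl36al had 0.62 (adjusted p 0.173), Rpl22l1 0.26, Rpl7l1 0.22 and Rps27l 0.13, none of them called.

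**Figure D3:**
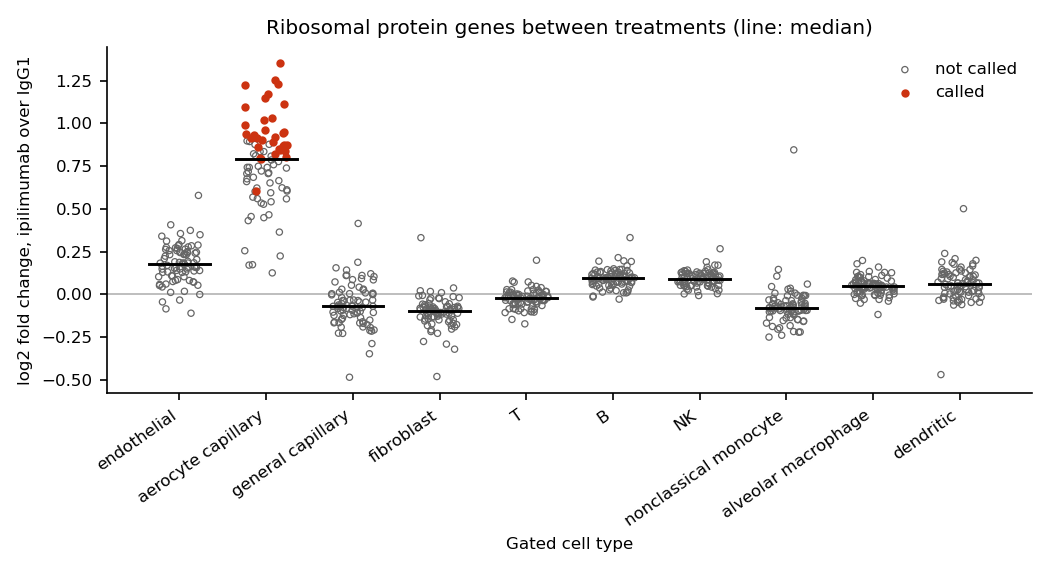
Log2 fold change, ipilimumab over IgG1 (vertical axis), of each tested ribosomal protein gene in 10 gates; points are genes, filled where called, and lines are medians. The aerocyte gate has a median of 0.79 with 33 called genes, and the other 9 gates have medians between -0.10 and 0.18 with none.

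Leukocyte transcripts were also higher in the aerocytes of ipilimumab mice. The 10 leukocyte genes (such as Ptprc, Cd52 and Tyrobp) made up 0.29, 0.40 and 0.19 per 10000 aerocyte UMIs in IgG1 and 4.10, 4.26 and 0.74 in ipilimumab. Cd74, H2-Aa and H2-Ab1 made up 0.52, 0.33 and 0.43 per 10000 in IgG1 and 14.9, 29.8 and 1.42 in ipilimumab. Both sets were without overlap between groups and highest in ipilimumab mice 1 and 2, the mice with the highest ribosomal protein shares. Of the 10 leukocyte genes 4 to 7 were detected in the IgG1 mice and 7 to 10 in the ipilimumab mice, with Cd79b, Trac and Trbc2 at 0 in all IgG1 mice.

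Of 10-gene marker lists for 18 other cell types, those of T cells (0.065 to 0.072 against 0.147 to 1.03 per 10000) and alveolar macrophages (0.163 to 0.330 against 0.624 to 2.00) were higher in ipilimumab aerocytes without overlap. The list for basophils and mast cells was lower without overlap, and the other 15 lists overlapped. Among the 15, ipilimumab mouse 1 stood high for fibroblasts (3.08 against 0 to 0.132 in IgG1) and AT2 cells (3.22 against 0.661 to 0.915). Other lists went the other way in that mouse, such as nonclassical monocytes (6.06 against 7.55 to 11.2). Of the alveolar macrophage genes Siglecf was at 0 in all 6 mice and Fabp1 in 5. The 10 endothelial markers were lower, at 190 to 195 per 10000 in IgG1 against 169 to 173 in ipilimumab. Both 8-gene lists that split the endothelium also lay apart between groups. The aerocyte list was lower in ipilimumab (92.5 to 96.5 in IgG1 against 81.0 to 83.0 per 10000). The general capillary list was higher (0.529 to 1.21 against 1.74 to 2.49). The part of this shift in the ribosomal protein difference was not tested.

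The median aerocyte of each mouse had a share of 1.80%, 1.73% and 2.11% in IgG1 and 3.55%, 1.80% and 2.36% in ipilimumab, and these medians overlapped. Cells at 4% or more, a limit chosen after the values were seen, numbered 4 of 47, 3 of 22 and 3 of 48 in IgG1 and 53 of 113, 5 of 32 and 8 of 63 in ipilimumab. In ipilimumab mouse 1 those 53 cells had a median of 1023 UMIs and held leukocyte genes at 14.5 and MHC class II genes at 57.2 per 10000, against 0.69 and 1.11 in its cells below 4%. They also held more of the fibroblast (12.2 against 0.106), interstitial macrophage (8.06 against 0.475) and AT2 (7.09 against 1.95) lists. Other lists were lower in them, such as that of dendritic cells (1.77 against 2.64). Of the 53, a cell of 10752 UMIs held 82 leukocyte UMIs and one of 9803 UMIs held 22, while 22 cells held none. In ipilimumab mouse 2 a single cell of 37086 UMIs held 43.3% of the ribosomal protein UMIs of the gate, together with 97 leukocyte and 762 MHC class II UMIs. Without that cell the share of this mouse was 2.66%. Without the corresponding cell of every mouse the shares were 1.87%, 1.84% and 2.08% in IgG1 and 3.56%, 2.66% and 2.47% in ipilimumab, still without overlap.

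**Figure D4:**
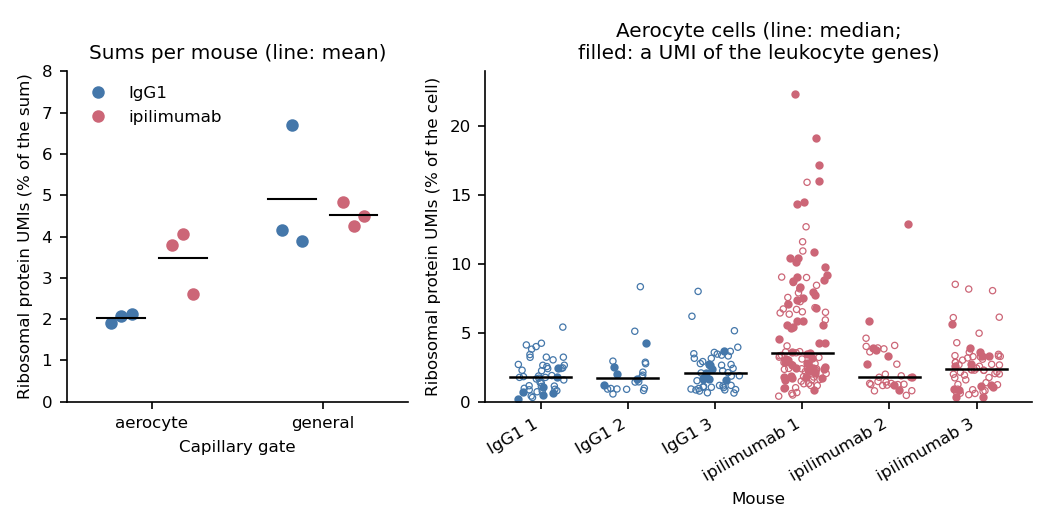
Ribosomal protein share (vertical axes, % of UMIs); left, per mouse in aerocyte and general capillary cells, with lines at group means; right, per aerocyte of each mouse, with lines at medians and filled points for cells with a UMI of the 10 leukocyte genes. Ipilimumab mouse 1 has 53 of 113 cells at 4% or more, and mouse 2 has 1 filled cell at 12.9%.

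The tests were repeated on fewer cells in ways chosen after the data were seen. Without the aerocyte of most ribosomal protein UMIs in each mouse, edgeR called 4 members, with a median of 0.58. On aerocytes with no UMI of the 10 leukocyte genes it called 0 of 80 members, with 43 at an unadjusted p under 0.05 and a median of 0.46. That repeat kept 40 of 47, 17 of 22 and 40 of 48 cells in IgG1 and 58 of 113, 23 of 32 and 49 of 63 in ipilimumab. On cells of at least 8000 UMIs it called 23, and the share in those cells was 1.84%, 2.18% and 2.07% in IgG1 and 3.57%, 4.86% and 2.89% in ipilimumab. Those cells include the cell of 37086 UMIs in ipilimumab mouse 2, with 97 leukocyte UMIs. They also include the cells of 10752 and 9803 UMIs in ipilimumab mouse 1, with 82 and 22 leukocyte UMIs. In ipilimumab mouse 3 they include a cell of 18069 UMIs with 17 leukocyte UMIs. At 4000 to below 8000 UMIs, the other bin with all 6 mice, the groups overlapped, with 2.27%, 2.02% and 2.15% in IgG1 and 2.06%, 1.84% and 2.30% in ipilimumab. Leaving out single mice gave 0 members without IgG1 mouse 1 or IgG1 mouse 3, 4 without IgG1 mouse 2, 3 without ipilimumab mouse 1, 9 without ipilimumab mouse 2 and 69 without ipilimumab mouse 3. Without ipilimumab mouse 1 the log2 fold changes were 1.12 for Rps24, 1.13 for Rps18 and 0.99 for Rps3, the called members, and 1.10 for Rps28, 1.10 for Rpl32 and 0.98 for Rps15a, which were then not called. The median ran from 0.46 to 0.96 over all alternatives. The share of all genes called in these repeats is not given here, so their counts of members have no background beside them. Whether leukocyte RNA in the gated barcodes or the smaller number of cells accounts for the changes in these repeats was not tested.

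Other genes called in aerocytes numbered 39, of which 35 were higher. They included Tpt1, the translationally controlled tumour protein whose mRNA also carries a TOP tract, at 0.94 ± 0.15 (adjusted p 0.00396), and the immediate early genes Ier3 (0.82) and Junb (0.77), 2 of 4 called of the 18 in that list. Cd74 was called at 5.50, with 6, 2 and 8 UMIs in IgG1 and 465, 424 and 32 in ipilimumab. Of the 23 translation factor genes 1 was called, the same Tpt1. Of 12 tested ribosome assembly genes 0 were called and of 47 tested mitochondrial ribosomal protein genes 0. At an unadjusted p under 0.05 these lists had 9, 1 and 2 genes. Their medians were 0.44, 0.30 and 0.20 in the same order.

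No member was called in general capillary cells or in the 7 other cell types tested. Neutrophils, classical monocytes and interstitial macrophages were not tested gene by gene between treatments. In general capillary cells the median of 82 members was -0.07, beside -0.02 over all genes. edgeR called 0% of 6544 genes (505 at an unadjusted p under 0.05, 4 by DESeq2). Without IgG1 mouse 2, the mouse at 6.69%, the median was 0.22, so its sign rests on that library. In T cells the median was -0.02 and 0.00822% of 12170 genes were called, and in fibroblasts it was -0.10 and 0.0276% of 7235 genes were called. The medians were 0.09 in B cells and in NK cells, 0.05 in alveolar macrophages, -0.08 in nonclassical monocytes and 0.06 in dendritic cells. In these 5 cell types 0% of genes were called, with 224 to 790 genes at an unadjusted p under 0.05 and 1 to 7 called by DESeq2. Members at an unadjusted p under 0.05 numbered 2 in B cells, 2 in nonclassical monocytes, 1 in fibroblasts and 0 in the others, and DESeq2 called 0 members in each.

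As shares, 2 of the 11 gates filled in all 6 mice had groups that did not overlap. Neutrophils had 2.61%, 2.29% and 2.45% in IgG1 and 2.63%, 2.77% and 3.43% in ipilimumab. Dendritic cells had 14.2%, 13.3% and 14.5% against 15.08%, 14.9% and 15.04%. The dendritic gate held 17 to 43 cells per mouse, and the gap between the nearest mice was smaller than the spread within IgG1 for both gates.

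The treatment effect was compared between cell types with the mouse as a block. The median effect on members was 0.29 higher in endothelial than in T cells and 0.32 higher than in fibroblasts. Of 13289 and 9334 genes tested edgeR called 0% in both (1062 and 542 at an unadjusted p under 0.05, with 0 and 1 members among them, and 0 called by DESeq2). Between aerocytes and general capillary cells, a comparison added after the data were seen, the effect was higher in aerocytes for 82 of 82 members, with a median of 0.71. Members move together here too, so the 82 are not independent. Of 7014 genes 0.371% were called, and of the members Rps24 alone, at 1.34 (adjusted p 0.0434). DESeq2 called 0 members, and so did edgeR when any 1 mouse other than ipilimumab mouse 3 was left out (11 without that mouse). The share of all genes called without single mice is not given here.

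Comparisons of cell types within the mice called nearly all members. Endothelial cells were lower than fibroblasts for 81 of 83 tested members and higher for 0, where 32.5% of 8052 genes were called lower, and the median log2 fold change was -1.56 beside -0.01 over all genes. Rps2, a small-subunit protein of the mRNA entry site, stood at 329, 505, 327, 491, 477 and 426 CPM in the endothelial cells of IgG1 mice 1 to 3 and ipilimumab mice 1 to 3, and at 1911, 2134, 2076, 1540, 2350 and 2343 CPM in the fibroblasts of the same mice. It was lower in 6 of 6 mice, by a log2 fold change of -2.28 ± 0.16.

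The paralog Rpl22l1 fell by 2.28 on the log2 scale, the X-linked Rps4x by 2.17 and Rps28 by 2.04. The smallest differences were -0.16 for Rpl7l1 and -0.51 for Rps19bp1, neither called, then -0.57 for Rps27rt, a retrogene copy of Rps27, and -0.81 for Rps15. Scaled by total UMIs alone Rpl7l1 was at 0.01. Of 23 translation factors 19 were lower, with the elongation factor subunits Eef1d (-1.71) and Eef1b2 (-1.60) lowest. Of 21 ribosome assembly genes 14 were lower, led by Rrs1 (-2.02) and Npm1, the nucleolar phosphoprotein nucleophosmin (-1.21). Of 59 mitochondrial ribosomal protein genes 32 were lower and 1 higher, and of 18 mTOR and TOP mRNA regulators 3 were lower, among them Myc (-4.52), and 3 higher, among them the kinase gene Rps6ka1 (5.62).

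Endothelial cells were lower than T cells for 82 of 83 members, where 37.6% of 11887 genes were called lower, with a median of -2.73 beside -0.09 over all genes. Rpl12, a protein at the base of the large-subunit stalk (chromosome 2, 32961559 to 32965345, plus strand), stood at 273, 361, 192, 451, 335 and 295 CPM in endothelial cells and at 4640, 4532, 5057, 4182, 5354 and 4508 CPM in T cells. Its log2 fold change of -3.93 ± 0.18 was the lowest of all members. The next were Rps15a (-3.49), Rplp0 (-3.43) and Rps24 (-3.40).

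Rps27l, the paralog of Rps27 that is known as a target of p53 (chromosome 9, 66946086 to 66949516, plus strand), was the one member not called. It stood at 91.3, 112, 102, 103, 107 and 96.8 CPM in endothelial cells and at 84.9, 122, 73.6, 112, 97.6 and 112 CPM in T cells. The ranges overlapped, and the log2 fold change was 0.04 ± 0.12. Rpl7l1 (-0.42), Rps19bp1 (-0.42) and Rpl41, the smallest of the ribosomal proteins (-1.68), came next and were called.

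Of 23 translation factors 19 were lower and 2 higher, with Eef1b2 (-3.09) and Tpt1 (-2.36) changed most. Of 30 assembly genes 25 were lower and 1 higher, led by Npm1 (-2.48) and Fbl, the fibrillarin that methylates ribosomal RNA (-2.35). Of 78 mitochondrial ribosomal protein genes 42 were lower and 8 higher. The 20 mTOR and TOP mRNA regulators were split, with 6 lower and 6 higher, and the mTOR inhibitor Deptor (2.96) and the translation repressor Eif4ebp1 (1.89) changed most.

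**Figure D5:**
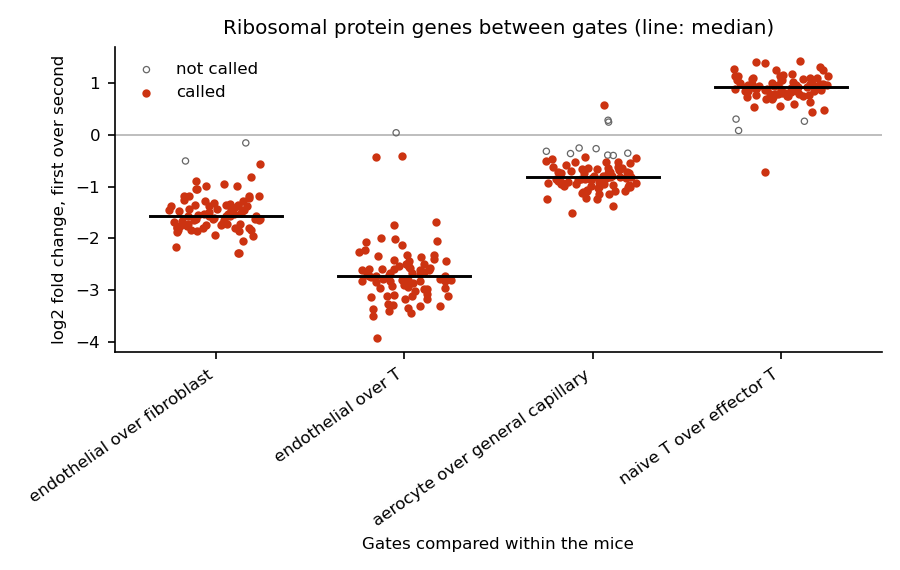
Log2 fold change (vertical axis) of each tested ribosomal protein gene in 4 comparisons of gates within the mice; points are genes, filled where called, and lines are medians. The medians are -1.56, -2.73, -0.81 and 0.92, and Rps27l is the point above 0 in endothelial against T cells and the called point opposite to the rest in aerocytes against general capillary cells and in naive against effector T cells.

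Within the endothelium, aerocytes were lower than general capillary cells for 72 of 82 members and higher for 1, where 24.6% of 5847 genes were called lower. The median was -0.81 beside 0.03 over all genes. The general capillary share was 1.84 to 3.22 times the aerocyte share in the IgG1 mice and 1.05 to 1.72 times in the ipilimumab mice. Rps24 stood at 258, 282 and 246 CPM in IgG1 aerocytes and 850, 702 and 442 CPM in ipilimumab aerocytes, against 1086, 1760, 1056, 1327, 1072 and 1127 CPM in the general capillary cells of the 6 mice. It had the lowest log2 fold change at -1.51 ± 0.22 and was lower in aerocytes in 6 of 6 mice.

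Rps6, the small-subunit protein phosphorylated by S6 kinase, had -1.38, Rps27 -1.24 and Rps19 -1.23. At the other end Rps27l was called higher at 0.58 ± 0.19 (adjusted p 0.0177), while Rpl31 (0.28), Rpl36al (0.24) and Rpl7a (-0.26) were not called. Of 46 mitochondrial ribosomal protein genes 16 were higher, 3 lower and 27 not called, where 1247 of all 5847 genes were called higher, and Mrpl3 (1.26) and Mrps6 (-1.21) changed most. Translation factors had 7 lower and 0 higher of 23, led by Tpt1 (-1.24) and the poly(A)-binding protein Pabpc1 (-0.96), and assembly genes 3 lower and 0 higher of 12. Of 14 mTOR and TOP mRNA regulators 5 were higher and 1 lower. Without the aerocyte of most ribosomal protein UMIs in each mouse 79 members were called. The share of all genes called in that repeat is not given here.

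T cells were also split by 6 markers each, for reference. Naive T cells had a share of 26.5% to 29.3% and effector T cells 15.9% to 16.8%, so the naive share was 1.58 to 1.74 times as high in each mouse. Naive cells were higher for 79 of 83 members and lower for 1, where 20.6% of 10481 genes were called higher, with a median of 0.92 beside 0.00 over all genes. Rpl12 at 1.42 ± 0.04, Rps19 and Rps20 at 1.39 and Rpl36a at 1.30 were highest. Rps27l was called lower at -0.73 ± 0.13, and Rps19bp1 (0.08), Rpl7l1 (0.26) and Rpl36al (0.30) were lowest among the rest, none of them called (Rpl36al was just under the limit of 0.3). Scaling by total UMIs alone put the median of all genes at -0.20 and of members at 0.71, and Rps19bp1 at -0.13. Of 23 translation factors 10 were higher, led by Eef1b2 (1.14), of 30 assembly genes 19 were higher, led by the RNA polymerase I subunit Polr1a (1.18), and 3 lower, and of 77 mitochondrial ribosomal protein genes 9 were higher and 17 lower.

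Rpl3l and Rpl39l were rare everywhere and had most of their UMIs in alveolar macrophages, a gate with 58212422 UMIs against 7381322 in neutrophils. Levels below are UMIs divided by all UMIs of the gate in each mouse (CPM, without TMM scaling). Rpl3l, a paralog of Rpl3 best known from striated muscle, had 456 of its 774 UMIs in alveolar macrophages (mean 8.09, range 6.50 to 10.2 CPM over 6 mice) and 69 in neutrophils (mean 10.5, range 5.39 to 15.5 CPM, overlapping), against 6 among 50602486 UMIs of T cells. Endothelial cells had 0 of 5094937 UMIs, which allows up to 0.589 CPM over the gate (3 counts, counting error only). Rpl39l, a paralog of Rpl39 known from the testis, had 169 of its 244 UMIs in alveolar macrophages (mean 2.89, range 1.14 to 6.05 CPM), 12 in neutrophils (mean 2.50, range 0 to 13.8 CPM) and 0 in endothelial cells, with the same limit. Rpl22l1 was at 143 ± 22.3 CPM in endothelial cells, 613 ± 59.4 in fibroblasts and 843 ± 40.1 in T cells, without overlap between these types. Rps27l was at 108 ± 12.6, 245 ± 37.6 and 94.1 ± 18.2 CPM in the same order, so that endothelial and T cells overlapped and fibroblasts lay above both (all SD, n = 6 mice).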

How the data were processed

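Single-cell libraries of 3 IgG1 and 3 ipilimumab mice were analysed. The deposited files hold raw UMI counts per gene and barcode, with every barcode kept, which the authors made with Cell Ranger against mm10 (version 7.0.0 per the processing notes, 4 per the file headers, and another version in the study's methods; reads mapped to more than 1 gene are dropped). The ambient correction with SoupX and the Seurat clusters that the authors then made were not used here. The 86 members, gene lists and gates were chosen with earlier results of these data known.

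Barcodes were called as cells above the 99th percentile of the top 5000 barcodes divided by 10, or with at least 500 UMIs and a profile unlike ambient barcodes (ranks 45000 to 90000, 10000 simulations, false discovery rate 0.01). At least 200 genes and at most 10% mitochondrial UMIs were required. Doublets were scored against simulated pairs (30 components, 20 neighbours) and the top 0.8% per 1000 cells removed.

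UMIs were summed per mouse and gate (at least 5 cells), and edgeR 4.0.16 in R 4.3.3 was run with TMM factors and filterByExpr. Treatments were compared without a block and cell types with the mouse as a block. DESeq2 1.42.0 was an alternative, with other scalings, gates, cell calls, depth limits and each mouse left out. The mouse was taken as the replicate. The test was run on simulated counts for endothelial and T cell sums, with each gene drawn separately. Aerocyte sums were not simulated, and the outcome is not given here. Named were the 8 members with most UMIs, paralogs with Rpsa and Rplp0 to Rplp2, members at 0, members called in the endothelial treatment comparison, the 4 highest and 4 lowest per comparison of cell types, and, of other lists, the 2 largest called. Promoter windows came from RefSeq (GRCm38.p6), in which 20 members had no entry. Python 3.11.15, NumPy 2.4.6, SciPy 1.17.1, pandas 2.3.3 and scikit-learn 1.9.0 were used. A result on ribosomal proteins outside the symbol rule is not reported here. Intervals and limits on counts cover counting error only.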

Additional observations from a re-analysis of the deposited data

Results flagged for a closer look

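The treatment effect on Rps24 differed between aerocyte and general capillary cells by 1.34 on the log2 scale (edgeR, adjusted p 0.0434), which is listed because the difference itself was tested and called. The comparison was added after the data were seen. DESeq2 did not call it, nor did edgeR when a single mouse other than ipilimumab mouse 3 was left out. The call was also lost with either other gate and with doublets kept. It was lost too on cells with no leukocyte UMI and without the cell of most ribosomal protein UMIs in each mouse.

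Barcodes of 100 to below 500 UMIs were not called as cells and enter no comparison. Their ribosomal protein share was 17.5% in ipilimumab mouse 1 (13158 such barcodes) and 13.03% in ipilimumab mouse 2 (1774 barcodes), above the 6.45% to 8.64% of the 3 IgG1 mice, while ipilimumab mouse 3 had 7.27%.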

How the results depend on the processing

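Of 1069 values recomputed for 64 results under alternatives, each changing a single choice, 973 were counted as kept. A single gene was kept if its direction and its side of the threshold stayed. Shares and medians were kept if they moved by less than the spread between mice. Counts of called members were kept if they stayed within a fixed factor of the main count, so some members could lose their call. Counts that stayed at 0 were among those kept. In aerocytes the 33 called members became 60 without the filter on low counts, 21 with the looser gate or with doublets kept, 5 with the stricter gate, 20 on cells of at least 2000 UMIs, 4 without the cell of most ribosomal protein UMIs in each mouse, 0 on cells with no leukocyte UMI and 0 to 69 with 1 mouse left out. The limit of 2000 UMIs, the left-out cell and the limit on leukocyte UMIs were chosen after seeing the data. The share of all genes called is not given for these repeats. The member called for the treatment effect in aerocytes against general capillary cells (1) became 2 with scaling by total UMIs alone, 0 with DESeq2, with cells called by UMI threshold, with either other gate, with doublets kept, on cells of at least 8000 UMIs, on cells with no leukocyte UMI and without the cell of most ribosomal protein UMIs, and 0 to 11 with 1 mouse left out. This comparison was itself added after seeing the data, and the share of all genes called in its repeats is not given either. Taken as the median over cells, the endothelial share was 2.44% in place of 3.95%. Single genes that changed sign were Rpl7l1 in endothelial cells against fibroblasts (0.0073, scaling by total UMIs), Rps27l in endothelial against T cells (-0.16 without the filter, and -0.058, without IgG1 mouse 3, to 0.112 with 1 mouse left out) and Rps19bp1 in naive against effector T cells (-0.13, scaling by total UMIs); none of these was called. With the endothelial share difference (-0.07 without IgG1 mouse 3) and the general capillary median (to 0.22), the treatment medians of members, none with a called member, also crossed 0 in T cells (-0.10 to 0.05), fibroblasts (-0.18 to 0.03), alveolar macrophages (-0.01 to 0.11) and dendritic cells (-0.07 to 0.12). The cause of these changes was not tested, beyond the fewer cells or mice that some hold.

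Same-numbered mice of the groups did not deviate together (correlations over genes of 0.04, -0.05 and -0.08 in endothelial cells and of -0.03, -0.07 and -0.12 in T cells), so the numbers were not taken as pairs. With the replicate number as a block 23 members were called in aerocytes and 0 in the other 9 treatment comparisons, and the endothelial median was 0.20. The share of all genes called with that block is not given here. With 3 mice a group and 22 to 113 aerocytes per mouse, small differences per gene could not be detected.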
